A study of Rattus norvegicus with 9 samples.

Results

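The genes described here are the potassium channel genes of the rat whose symbols start with Kcn. All probe sets whose array annotation gives exactly 1 symbol, and whose symbol starts with Kcn, were taken, which gave 85 probe sets for 83 of the 14506 genes that the annotation names in this way. A gene with several probe sets was read from the one with the highest average on the 9 arrays. Only Kcnip1 and Kcnip2 had a second probe set. Neither of those passed the test for brain against blood, which the probe sets used here did, so the 2 probe sets of each of these genes disagreed there, and of the second ones that of Kcnip1 alone passed for PFC against blood (measured difference 0.42, with blood not above background, adjusted p = 0.0387). For HC against PFC the second probe set of Kcnip2 did not pass (difference 0.14), whereas the one used here did.

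RNA from hippocampus (HC), prefrontal cortex (PFC) and whole blood of 3 rats, which carry the numbers 2, 5 and 7, was measured on Rat Gene 1.0 ST arrays, 1 array for each tissue of each rat. The rats were male Wistar rats, 6 weeks old on arrival and housed for 1 week, and none of them received a treatment. HC and PFC were punched from frozen brain slices of 120 µm and hold all cell types of the region, and whole blood holds its red cells, platelets and leukocytes. Brain RNA was isolated with TRIzol and an RNeasy Micro kit, and blood RNA from PAXgene tubes with the PAXgene kit. In brain against blood, tissue and RNA isolation therefore cannot be told apart. The labels speak of 6 rats, the methods of 4 and the design text of 3, and arrays of 3 were analysed here. All values below are RMA values on the log2 scale, given for rats 2, 5 and 7 in that order, and presence of a gene in a tissue means that its 3 arrays there averaged above 6.2. Differences are HC minus PFC, or brain minus blood with brain as the mean of HC and PFC, and were called with limma at an adjusted p under 0.05 over all probe sets. The probes of different genes are not calibrated against each other, so levels were compared between tissues and not between genes.

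The channels built from these genes let potassium leave or enter cells and set the resting potential, the shape of action potentials and the rate of firing. Voltage-gated Kv subunits assemble as tetramers with auxiliary proteins, calcium- and sodium-activated channels couple potassium flux to other ions, inward rectifiers (Kir) hold the membrane near rest and serve as effectors of G proteins, and tandem-pore K2P channels carry leak currents. Neurons express many of these genes, astrocytes use Kir channels to buffer potassium, and red cells and lymphocytes are known for a small set of them that controls volume and calcium entry.

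The RefSeq table of promoters (build GRCr8) held 58 of the 83 genes. Shown are the 250 bases before the annotated start, 5′ to 3′ on the strand of the gene, for Kcnd2 at chr4:50742235-50742484 (+), with the widest brain over blood difference, for Kcnt2 at chr13:54215057-54215306 (+), whose measured difference was close to it but is known only as at least 3.74, and for the 2 genes with the widest deficit in HC against PFC, Kcnf1 at chr6:45693707-45693956 (-) and Kcnh5 at chr6:99643857-99644106 (-). Capitals mark a GC box, the only one of the 3 motifs searched that was found in these sequences.
Kcnd2: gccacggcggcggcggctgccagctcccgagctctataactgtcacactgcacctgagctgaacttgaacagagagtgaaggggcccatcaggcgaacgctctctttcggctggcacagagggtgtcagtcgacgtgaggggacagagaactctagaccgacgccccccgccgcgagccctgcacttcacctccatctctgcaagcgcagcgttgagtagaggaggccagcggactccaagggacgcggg
Kcnt2: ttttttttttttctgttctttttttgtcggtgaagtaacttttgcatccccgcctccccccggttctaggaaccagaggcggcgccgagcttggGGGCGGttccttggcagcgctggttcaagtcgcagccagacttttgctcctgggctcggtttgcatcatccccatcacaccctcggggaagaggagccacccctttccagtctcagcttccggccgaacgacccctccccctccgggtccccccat
Kcnf1: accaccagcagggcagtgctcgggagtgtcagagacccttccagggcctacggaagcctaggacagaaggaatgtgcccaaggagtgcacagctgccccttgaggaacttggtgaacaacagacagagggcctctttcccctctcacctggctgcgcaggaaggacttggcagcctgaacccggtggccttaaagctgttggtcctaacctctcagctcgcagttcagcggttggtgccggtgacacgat
Kcnh5: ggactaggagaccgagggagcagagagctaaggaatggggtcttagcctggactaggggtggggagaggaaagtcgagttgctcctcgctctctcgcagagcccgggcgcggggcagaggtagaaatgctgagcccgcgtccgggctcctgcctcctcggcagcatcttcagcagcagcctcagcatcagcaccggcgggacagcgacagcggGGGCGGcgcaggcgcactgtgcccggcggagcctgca
The GC box stood in Kcnt2 and Kcnh5 and in neither of the others, so it was found in 1 gene of each pair.

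The tissues carried the markers of their labels. All 8 neuron markers measured were present in HC and PFC, 4 of 5 hippocampal field markers were higher in HC than in PFC, and all 5 erythroid and 7 T cell markers were present in blood. The Spearman correlation between arrays of a tissue over all probe sets was 0.995 to 0.996 in HC, 0.995 to 0.996 in PFC and 0.957 to 0.968 in blood, and the median SD over the 83 Kcn genes was 0.09 in HC, 0.11 in PFC and 0.30 in blood samples. The blood array of rat 5 had the lowest mean of the T cell markers, 8.81 against 9.39 in rat 2 and 9.53 in rat 7. The background level was set at the 95th percentile over 229 probe sets of olfactory, vomeronasal and taste receptors, and stood at 4.88 in HC, 4.78 in PFC and 5.25 in blood. Where a tissue mean was below it, a difference is given as at least the distance to that level. The Kcn genes above background numbered 77 in HC, 76 in PFC and 64 in blood, and of all probe sets 68.1%, 69.8% and 68.4% were above it in HC, PFC and blood. A wider set of 1298 receptor probe sets, chosen after seeing the data, put the level at 4.88 in HC, 4.85 in PFC and 5.53 in blood. By that set 33 Kcn genes, against 19, were not above background in blood. The bounds against blood given below use the 229 probe sets and would be smaller by the wider set.

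More Kcn genes were present in the brain than in blood. In HC 54 (65.1%) and in PFC 56 (67.5%) of the 83 genes were present, against 21 (25.3%) in blood, while of all probe sets 47.2%, 47.1% and 46.9% were present in HC, PFC and blood. Present in both brain regions and not in blood were 35 genes (42.2%, against 9.53% of all probe sets), and 18 (21.7%, against 36.3%) were present in all 3 tissues. A further 23 genes (27.7%, against 42.2%) were present in none. Kcnd1 was present in HC alone, Kcnab3, Kcng3 and Kcns1 in PFC alone, and Kcnn4, Kcnk3 and Kcnk18 in blood alone. Scaling the arrays to housekeeping genes put 53 above the presence level in HC and 56 in PFC, against 42 in blood.

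**Figure D1:**
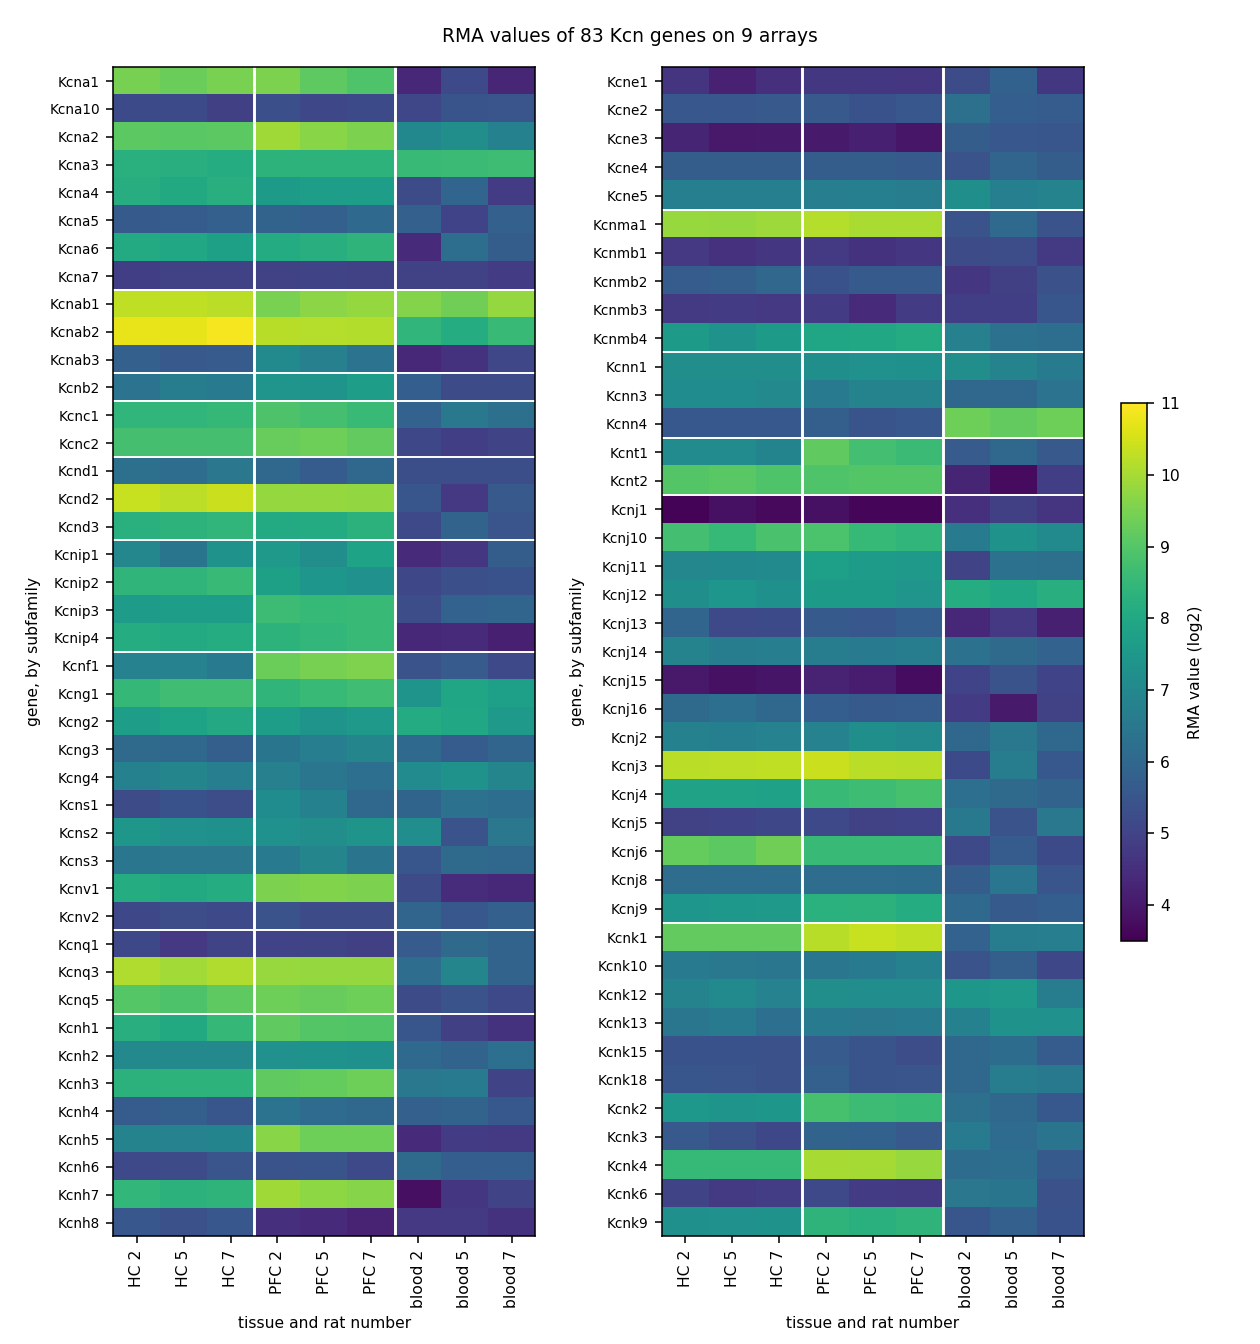
RMA value (log2, colour) of each of the 83 Kcn genes (down the page, by subfamily, white lines between subfamilies) on the 9 arrays (HC, PFC and blood of rats 2, 5 and 7). Kcnn4 is bright in the 3 blood arrays, at 9.20 to 9.36, and dark in the 6 brain arrays, at 5.45 to 5.76, and Kcnd2, Kcnj3 and Kcnma1 show the opposite.

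The same genes were set against blood in the fit across all probe sets. In the brain 52 Kcn genes were higher than in blood (62.7%, against 30.0% of all probe sets) and 19 were lower (22.9%, against 49.6%). The median difference was 0.97 over the Kcn genes and -0.31 over all probe sets. Of the 52 genes, 13 were not above the background level in blood. With these at their lower bound, 31 of the 52 differed by more than 2 and 4 (Kcnd2, Kcnj3, Kcnma1 and Kcna1) by more than 4 on the log2 scale, and the median over the Kcn genes was 0.81, a gene below background in all tissues counting as 0. Among genes with a mean over the 9 arrays above 6.2, 45 of 53 Kcn genes were higher (84.9%, against 53.3% of such probe sets) and 5 were lower (9.43%, against 30.7%). That mean is weighted to brain, which gave 6 of the arrays, so the filter keeps more of the genes that are high there. These shares are therefore no separate evidence for the direction. Taken singly, HC had 51 genes higher and 18 lower than blood (29.0% and 46.5% of all probe sets), and PFC 52 higher and 19 lower (28.7% and 47.0%), both against the same blood arrays. All 6 brain arrays lay above all 3 blood arrays for 49 genes (59.0%, against 27.3% of all probe sets) and below them for 19 (22.9%, against 43.5%). In tissue taken as a whole, fewer cells of a type and less RNA per cell cannot be told apart. The summed linear signal of the neuron markers was 22600 to 23800 in HC and 25400 to 26200 in PFC, against 360 to 422 in blood, and the part of cell makeup in the differences was not tested.

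**Figure D2:**
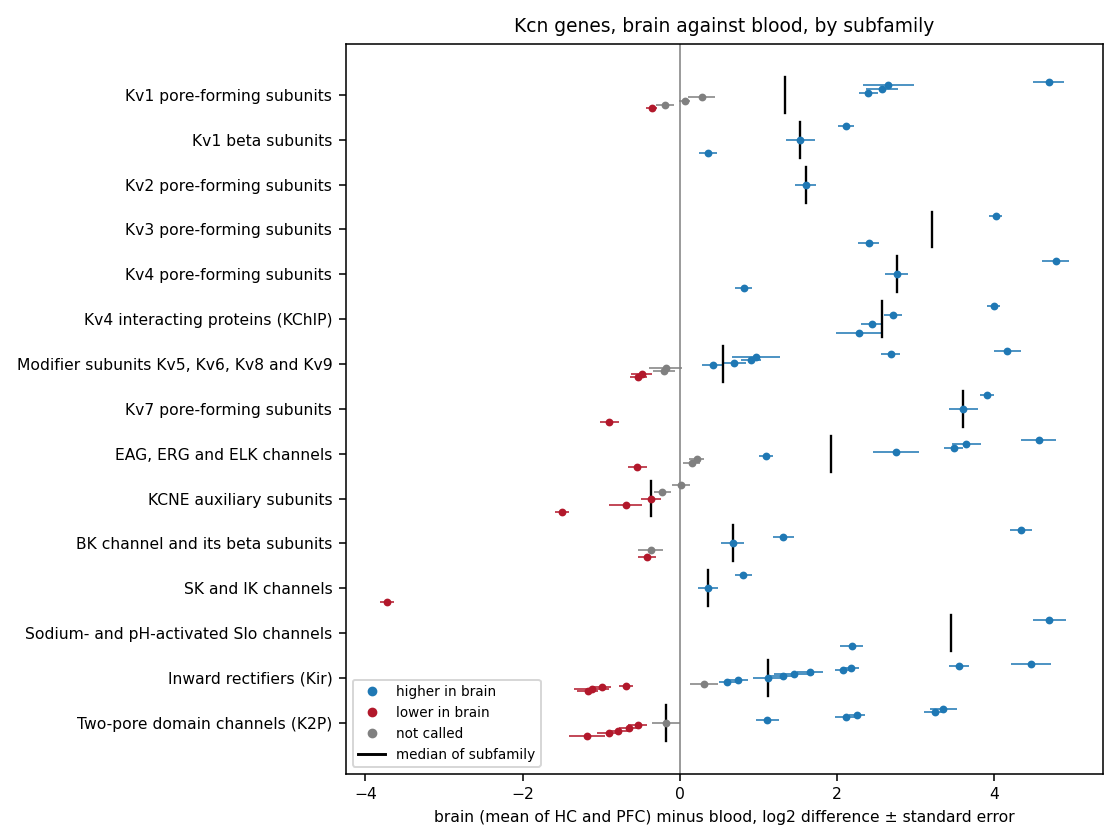
Measured brain minus blood difference (log2, x axis, point with standard error) of each Kcn gene, by subfamily down the page, with calls by limma in colour and the median of each subfamily as a black bar. The medians run from 3.60 in the Kv7 group and 3.44 in the Slo group (2.96 with Kcnt2 at its bound) to -0.37 in the KCNE group, and Kcnn4 is the point at -3.72.

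The complex that carries the A-type current was among the widest. Its pore is built by Kv4 subunits (Kcnd), which open below the firing threshold in dendrites, with calcium-binding KChIP proteins (Kcnip) that bring them to the membrane. On the probe sets used, all 3 Kcnd and all 4 Kcnip genes were higher in brain (against 30.0% of all probe sets). The second probe sets of Kcnip1 and Kcnip2 did not pass. Kcnd2 had 10.38, 10.24 and 10.39 in HC and 9.82, 9.82 and 9.78 in PFC, against 5.52, 4.76 and 5.60 in blood. That is 27.4-fold (difference 4.78 ± 0.17 SE, limma adjusted p = 5.24e-09), the widest difference of the family, with no overlap between brain and blood arrays. Kcnip4, the KChIP that slows Kv4 inactivation, had 8.13, 8.10 and 8.14 in HC and 8.36, 8.46 and 8.54 in PFC, against 4.33, 4.41 and 4.14 in blood, which was not above background. Its difference was at least 3.04 (measured 3.99 ± 0.09, adjusted p = 2.56e-10). Kcnd3, Kcnip2, Kcnip3 and Kcnip1 were higher by 2.76, 2.71, 2.44 and 2.28 (for Kcnip1 at least 1.97). Kcnd1 was higher by 0.81 only, with 6.26, 6.17 and 6.49 in HC and 6.01, 5.69 and 6.01 in PFC, against 5.29, 5.30 and 5.29 in blood.

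Kv1 channels, which sit in axons and limit repetitive firing, were split. Kcna1, Kcna2, Kcna4 and Kcna6 were higher in brain, Kcna3 was lower, and Kcna5, Kcna7 and Kcna10 passed neither way and were present in no tissue. Kcna1, mutated in human episodic ataxia, had 9.47, 9.32 and 9.48 in HC and 9.51, 9.13 and 8.93 in PFC, against 4.38, 5.15 and 4.31 in blood, so it was higher by at least 4.06 (measured 4.69 ± 0.19, adjusted p = 1.58e-08). Kcna2, its axonal partner subunit, had 9.10, 9.08 and 9.10 in HC and 9.93, 9.67 and 9.52 in PFC, against 7.00, 7.22 and 6.79 in blood, so it was present in all tissues and 5.27-fold higher in brain. Kcna6 had the largest SD of the family in blood, where its values were 4.39, 6.21 and 5.71. Its brain arrays, between 7.75 and 8.38, still lay above all of these.

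The beta subunits of Kv1 channels bind the cytoplasmic side of the pore and 2 of them were present in blood as well. Kcnab2 had 10.76, 10.72 and 10.90 in HC and 10.19, 10.18 and 10.14 in PFC, against 8.43, 8.13 and 8.55 in blood (difference 2.11 ± 0.10, adjusted p = 4.47e-08). Kcnab1, which adds fast inactivation, had 10.29, 10.29 and 10.22 in HC and 9.48, 9.69 and 9.80 in PFC, against 9.62, 9.38 and 9.82 in blood. The PFC arrays of Kcnab1 overlapped the blood arrays and the HC arrays lay above both. Its brain minus blood difference of 0.36 ± 0.11 (adjusted p = 0.0151) was that of HC (HC minus blood 0.66, adjusted p = 0.00115), while PFC minus blood was 0.05 (adjusted p = 0.742). These differences share the blood arrays. Without the blood array of rat 5 the call for Kcnab1 was lost, and with arrays scaled to housekeeping genes its difference was -0.25.

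Kv2 and Kv3 channels, which repolarize the action potential, were higher in brain in all 3 cases (against 30.0% of all probe sets). Kcnc2, a Kv3 subunit of fast-spiking interneurons, had 8.80 in each HC array and 9.26, 9.35 and 9.20 in PFC, against 5.14, 4.89 and 5.03 in blood, and was higher by at least 3.78 (measured 4.02 ± 0.08, adjusted p = 1.98e-10). Kcnc1 was higher by 2.40, with a blood mean of 6.21 just past the presence level, and Kcnb2 by 1.60. Identical values on all 3 arrays of a tissue, as for Kcnc2 in HC, occurred in 8 of 249 gene and tissue combinations (Kcnc2, Kcnh2, Kcne4, Kcne5, Kcnj8, Kcnk1 and Kcnk4 in HC and Kcna3 in PFC), so their SD was 0 there.

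The modifier subunits Kv5, Kv6, Kv8 and Kv9 form no channel alone and change the gating of Kv2. They were mixed, with 6 of 10 higher (60%, against 30.0% of all probe sets) and 2 lower in brain (20%, against 49.6%) and a median difference of 0.55. Kcnv1, of the Kv8 type, had 8.15, 8.07 and 8.15 in HC and 9.53, 9.59 and 9.53 in PFC, against 5.23, 4.46 and 4.33 in blood (at least 3.59, measured 4.16 ± 0.17, adjusted p = 1.62e-08). Kcnf1, of the Kv5 type, was higher by 2.68 ± 0.12 (adjusted p = 2.62e-08). The remaining calls were below 1 in size, namely Kcns2 at 0.97, Kcng1 at 0.90, Kcns3 at 0.69 and Kcng3 at 0.42 higher and Kcng4 at -0.48 and Kcnv2 at -0.53 lower, and Kcng2 (-0.20) and Kcns1 (-0.18) passed neither way. Kcns2 had uneven blood values, 7.18, 5.41 and 6.47, beside 7.21 to 7.47 in the brain arrays. The call of Kcng3 was lost without the blood array of rat 5.

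Kv7 channels carry the M-current that muscarinic receptors suppress. Kcnq3 had 10.10, 9.95 and 10.11 in HC and 9.84, 9.80 and 9.82 in PFC, against 6.19, 6.91 and 5.90 in blood, 12.2-fold higher in brain (difference 3.60 ± 0.19, adjusted p = 7.65e-08). Kcnq5 had 9.01, 8.89 and 9.13 in HC and 9.35, 9.27 and 9.35 in PFC, against 5.21, 5.42 and 5.15 in blood (difference 3.91 ± 0.09, adjusted p = 4e-10). Kcnq1, the subunit of the slow cardiac current, went the other way with -0.90 (adjusted p = 7.95e-05). Its mean was 5.88 in blood, under the presence level, so the 2 neuronal members and the cardiac member parted in direction.

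The EAG, ERG and ELK channels (Kcnh) held 5 higher genes (62.5%, against 30.0% of all probe sets) and 1 lower gene (12.5%, against 49.6%) of 8. None was present in blood. Kcnh7, an ERG channel of neurons, had 8.47, 8.31 and 8.39 in HC and 9.93, 9.74 and 9.63 in PFC, against 3.80, 4.70 and 5.04 in blood, and was higher by at least 3.83 (measured 4.56 ± 0.23, adjusted p = 5.57e-08). Kcnh1 and Kcnh5, both EAG channels, were higher by at least 3.40 and 2.91 and Kcnh3, an ELK channel, by 2.75 ± 0.29. Kcnh3 rested on uneven blood arrays, at 6.52, 6.57 and 5.05, all below its lowest brain value of 8.32. Kcnh2, the ERG channel of the heart, was higher by 1.09, and Kcnh6, at a blood mean of 5.86, was lower in brain (difference -0.54). The KCNE subunits, single-span partners of Kcnq1 and Kcnh2, had no gene that was higher in brain (against 30.0% of all probe sets). Lower in brain were 60% of them, against 49.6%. Of the 5, Kcne3 (-1.50, or -0.75 when counted from the background level), Kcne1 (-0.69, or -0.44 from that level) and Kcne2 (-0.37) were lower, none of them was present in any tissue, and Kcne4 and Kcne5 passed neither way. The call of Kcne2 was lost without the HC or blood array of rat 2 or the PFC array of rat 5. Kcne5 was the only one present, with 6.74 in each HC array, 6.72, 6.73 and 6.65 in PFC and 7.25, 6.74 and 6.85 in blood.

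Among channels opened by calcium or sodium, Kcnma1, the pore of the BK channel that ends calcium spikes, had 9.84, 9.83 and 9.89 in HC and 10.16, 10.04 and 10.05 in PFC, against 5.41, 6.05 and 5.43 in blood (20.2-fold, difference 4.34 ± 0.14, adjusted p = 2.9e-09). Its neuronal beta subunit Kcnmb4 was higher by 1.31 and was present in blood too, Kcnmb2 was higher by at least 0.42 and present nowhere, and Kcnmb1, the subunit of smooth muscle, was called lower without passing the background level in any tissue. Kcnt2, a sodium-activated Slo channel, had 8.99, 9.10 and 8.94 in HC and 8.95, 8.99 and 8.98 in PFC, against 4.26, 3.71 and 4.90 in blood, at least 3.74 higher in brain (measured 4.70 ± 0.21, adjusted p = 2.4e-08). The small-conductance channels Kcnn3 and Kcnn1, which make the afterhyperpolarization, were higher by 0.81 and 0.36. The call of Kcnn1 was lost without the blood array of rat 5 and also without that of rat 7, and its difference was -0.25 with housekeeping scaling.

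Kcnn4 had the widest difference in favour of blood. It encodes the intermediate-conductance channel, known as the Gardos channel of red cells, which also acts in activated T cells. It had 5.56, 5.57 and 5.57 in HC and 5.76, 5.45 and 5.55 in PFC, against 9.34, 9.20 and 9.36 in blood. Brain was 13.2-fold lower (difference -3.72 ± 0.09, adjusted p = 4.68e-10), and the 6 brain arrays and the 3 blood arrays were separated by more than 3 on the log2 scale. The erythroid markers had a summed linear signal of 442 to 613 in HC and 781 to 1280 in PFC, against 34700 to 37600 in blood, and the T cell markers of 290 to 314 in HC and 193 to 215 in PFC, against 3660 to 6200 in blood. Their part in the level of Kcnn4 was not tested.

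Inward rectifiers were higher in brain in 10 of 15 cases (66.7%, against 30.0% of all probe sets) and lower in 4 (26.7%, against 49.6%). Kcnj3 and Kcnj6, which G proteins open, had the widest differences. Kcnj3 had 10.23, 10.24 and 10.28 in HC and 10.40, 10.23 and 10.19 in PFC, against 5.19, 6.64 and 5.56 in blood (22.1-fold, difference 4.46 ± 0.26, adjusted p = 1.74e-07). Kcnj6, its neuronal partner, was higher by 3.55 ± 0.13 and Kcnj9 of the same type by 2.07 ± 0.11, whereas Kcnj5, the partner known from the atrium, was lower (difference -1.12 ± 0.22, adjusted p = 0.00117). Blood values of Kcnj5 were 6.55, 5.42 and 6.50, with the array of rat 5 apart from the other two, and its 6 brain values lay at 4.95 to 5.16. Kcnj10, the astrocyte channel that takes up potassium, had 8.77, 8.53 and 8.84 in HC and 8.89, 8.51 and 8.44 in PFC, against 6.62, 7.33 and 7.08 in blood (difference 1.66 ± 0.16, adjusted p = 9.5e-06). All 7 astrocyte markers were higher in brain, with a summed linear signal of 15300 to 15800 in HC and 12500 to 13000 in PFC, against 321 to 370 in blood. Kcnj4, a strong rectifier of neurons, was higher by 2.18 ± 0.10. The ATP-sensitive pore Kcnj11 was higher by 1.46, while Kcnj8, the vascular one, passed neither way at 0.31. Kcnj12, a classical strong rectifier, was lower in brain (difference -0.69 ± 0.09, adjusted p = 5.77e-05), with 7.24, 7.44 and 7.25 in HC and 7.58, 7.58 and 7.41 in PFC, against 8.13, 8.00 and 8.19 in blood. Kcnj1 and Kcnj15, known from kidney, were not above background in any tissue.

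The K2P leak channels parted evenly, with 5 of 11 higher in brain (45.5%, against 30.0% of all probe sets) and 5 lower (45.5%, against 49.6%). Their share of lower genes was thus near that of all probe sets. Their median difference was -0.18, against -0.31 over all probe sets. The mechano- and heat-sensitive members Kcnk4 and Kcnk2 were higher by 3.24 and 2.11 and Kcnk10 of the same branch by 1.11. Kcnk1, which is widely expressed in brain, was higher by 3.35 ± 0.17 (adjusted p = 6.98e-08) and Kcnk9, an acid-sensitive channel, by 2.25 ± 0.10 (adjusted p = 2.26e-08). The lower ones were Kcnk6 (-1.18), Kcnk18 (-0.90), Kcnk3 (-0.78), Kcnk13 (-0.65) and Kcnk15 (-0.54), and Kcnk12 passed neither way. Kcnk3, also acid-sensitive and the closest relative of Kcnk9, had 5.60, 5.36 and 5.13 in HC and 5.88, 5.84 and 5.59 in PFC, against 6.55, 6.11 and 6.38 in blood. The blood arrays of Kcnk3 lay above its brain arrays by little, and those of Kcnk9, at 5.52, 5.79 and 5.39, lay below its brain arrays by more than 1.

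Of the 19 genes that were lower in brain, 7 were present in blood (Kcnn4, Kcnk18, Kcnk3, Kcnj12, Kcnk13, Kcng4 and Kcna3) and 12 were not, with measured differences of -1.50 to -0.37, and 3 of these 12 were not above background in blood either. Kcna3, the Kv1 channel that sets the potential of T lymphocytes and is also found in brain, was present everywhere. It had 8.27, 8.20 and 8.13 in HC and 8.35 in each PFC array, against 8.59, 8.61 and 8.68 in blood, so the blood arrays lay above all brain arrays by a small margin (1.28-fold lower in brain, difference -0.36 ± 0.07, adjusted p = 0.00125). Kcng4 was lower (difference -0.48), though in HC alone the test was not passed: HC minus blood was -0.33 (adjusted p = 0.0833), against -0.64 for PFC minus blood (adjusted p = 0.00424). With arrays scaled to 12 housekeeping genes, which shifted the median brain minus blood difference of all probe sets by -0.61, 31 Kcn genes were lower in brain (against 69.6% of all probe sets) and 40 were higher (against 18.7%).

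**Figure D3:**
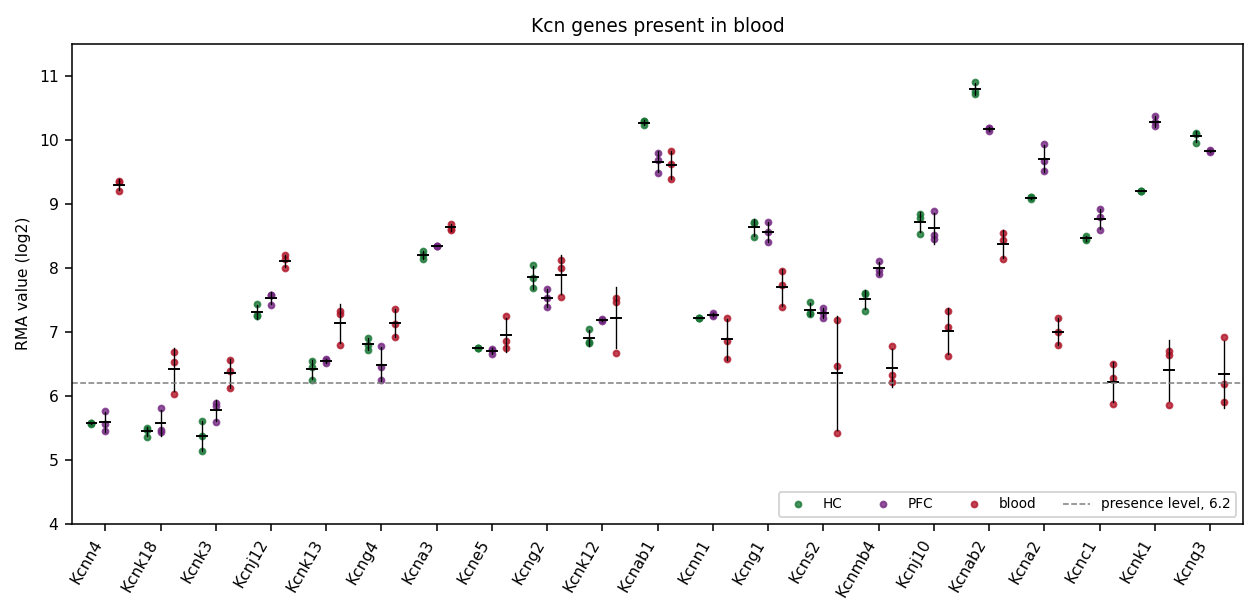
RMA values (log2, y axis) of the 21 Kcn genes present in blood, 1 point per array, with a bar and line for mean ± SD of 3 arrays in HC, PFC and blood and a dashed line at the presence level of 6.2. Kcnn4, Kcnk18 and Kcnk3 are the 3 genes whose brain means lie under the line, and the blood points of Kcns2 spread from 5.41 to 7.18.

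Of the 21 genes present in blood, 8 were far from the presence level. Kcnab1 (9.61 ± 0.22, SD, n = 3), Kcnn4 (9.30 ± 0.09), Kcna3 (8.63 ± 0.05), Kcnab2 (8.37 ± 0.21), Kcnj12 (8.11 ± 0.10), Kcng2 (7.89 ± 0.30), Kcng1 (7.69 ± 0.28) and Kcnk12 (7.22 ± 0.48) were also present there at a level of 7.2. Kcnab1, Kcnab2 and Kcna3 are subunits of 1 channel type, and all were present in HC and PFC as well. By contrast Kcnc1 (6.21 ± 0.31), Kcnq3 (6.33 ± 0.52), Kcnk3 (6.35 ± 0.22), Kcns2 (6.35 ± 0.89), Kcnk1 (6.40 ± 0.47), Kcnk18 (6.41 ± 0.34) and Kcnmb4 (6.43 ± 0.30) stood within 1 SD of the level of 6.2, so their presence in blood was within the spread between arrays. With the background level in place of 6.2, 64 Kcn genes counted as present in blood.

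The comparison of the brain regions gave fewer calls, mostly in favour of PFC. In HC 5 Kcn genes were higher than in PFC (6.02%, against 2.11% of all probe sets) and 19 were lower (22.9%, against 2.33%). The median difference was -0.12 over the Kcn genes and -0.0022 over all probe sets. Among genes with a mean over the 9 arrays above 6.2, 4 of 53 were higher (7.55%, against 3.48%) and 15 lower (28.3%, against 3.70%). All 3 HC arrays lay above all 3 PFC arrays for 15 genes (18.1%, against 14.9% of all probe sets) and below them for 33 (39.8%, against 15.0%). With the HC and PFC arrays fitted alone, 8 Kcn genes were higher and 27 lower in HC, and of all probe sets 6.11% were higher and 6.36% lower in that fit. Without the blood array of rat 5 there were 8 higher (against 3.56% of all probe sets), and 2 without any 1 of the 6 brain arrays (against 1.14% to 1.29%). The lower ones numbered 10 without the HC array of rat 2, 12 without that of rat 5 and 11 without that of rat 7 or without the PFC array of rat 5. The share of all probe sets that were lower was 1.29% to 1.32% in these fits, against 2.33% with all arrays. Kcnh8 and Kcnip2 on the higher side and Kcnf1, Kcnh5, Kcnt1, Kcnk4, Kcnv1, Kcnk2, Kcnk9, Kcnb2, Kcnj4 and Kcnj9 on the lower side kept their calls with each array left out. The other 12 lost theirs without at least 1 brain array, and Kcnab1, Kcnab2, Kcnc2, Kcnh4, Kcnh7 and Kcnj6 without any 1 of the 6.

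**Figure D4:**
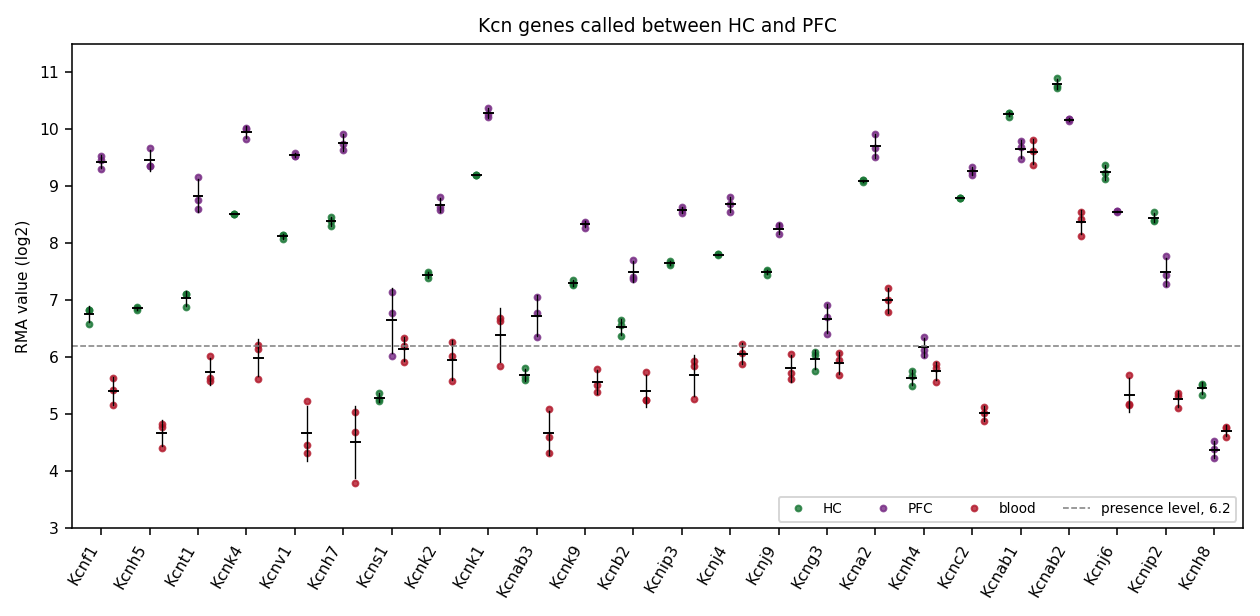
RMA values (log2, y axis) of the 24 Kcn genes called between HC and PFC, 1 point per array, with a bar and line for mean ± SD of 3 arrays in HC, PFC and blood and a dashed line at the presence level of 6.2. Kcnf1 and Kcnh5, at the left, have the widest gaps, of -2.68 and -2.60, and the 5 genes at the right are those higher in HC.

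Kcnf1, the Kv5 modifier subunit, Kcnh5, the EAG channel, and Kcnt1 had the widest differences between the regions, and all were lower in HC. Kcnf1 had 6.83, 6.83 and 6.59 in HC, against 9.31, 9.46 and 9.54 in PFC, 6.42-fold lower in HC (difference -2.68 ± 0.14, adjusted p = 1.31e-05). Kcnh5 had 6.86, 6.83 and 6.88 in HC, against 9.67, 9.35 and 9.35 in PFC, 6.05-fold lower (difference -2.60 ± 0.14, adjusted p = 1.39e-05). Kcnt1, a sodium-activated channel mutated in human epilepsies, had 7.11, 7.11 and 6.88 in HC, against 9.16, 8.75 and 8.61 in PFC (difference -1.81 ± 0.17, adjusted p = 0.000233). The regions did not overlap in any of these genes, and the blood means were 5.41 for Kcnf1, 4.68 for Kcnh5 and 5.75 for Kcnt1, so HC lay between PFC and blood. The close relative Kcnt2 did not pass between the regions (difference 0.04 ± 0.24).

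K2P channels, modifier subunits, the Kv2 pore and Kcnh channels held further genes that were lower in HC. Of the K2P channels 4 of 11 were lower in HC (36.4%, against 2.33% of all probe sets) and none higher (against 2.11%). Kcnk4 had 8.52 in each HC array, against 9.84 to 10.03 in PFC (difference -1.44 ± 0.15, adjusted p = 0.000504), and Kcnk2 had 7.49, 7.39 and 7.47 in HC, against 8.82, 8.63 and 8.59 in PFC (difference -1.23 ± 0.16, adjusted p = 0.0019). Kcnk9 had 7.26, 7.28 and 7.36 in HC, against 8.36, 8.27 and 8.38 in PFC (difference -1.04 ± 0.11, adjusted p = 0.000665), and Kcnk1 differed by -1.08 ± 0.20. Thus 4 of the 5 K2P genes that were higher in brain than in blood were also lower in HC than in PFC, and Kcnk10 alone was not (difference -0.08 ± 0.17). Among the modifier subunits, Kcnv1 (-1.43 ± 0.20, adjusted p = 0.00283), Kcns1 (-1.35 ± 0.24, adjusted p = 0.0119) and Kcng3 (-0.72 ± 0.16, adjusted p = 0.0318) joined Kcnf1. Kcns1 had 5.23, 5.38 and 5.28 in HC, against 7.14, 6.78 and 6.03 in PFC. Its PFC values had the largest SD of the family in that region, 0.57, and the call was lost without the HC array of rat 2 or 7 or the PFC array of rat 5. Their target Kcnb2, a Kv2 pore, had 6.37, 6.65 and 6.56 in HC, against 7.41, 7.37 and 7.71 in PFC (difference -0.97 ± 0.16, adjusted p = 0.00656). Of the Kcnh genes Kcnh7 (-1.38 ± 0.26) and Kcnh4 (-0.53 ± 0.13) were lower too. Kcnh1 (-0.79 ± 0.21, adjusted p = 0.08) and Kcnh3 (-0.91 ± 0.34, adjusted p = 0.262) did not pass, although no HC array reached the PFC arrays, and both passed when HC and PFC were fitted alone.

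Inward rectifiers went both ways. Kcnj4 had 7.81, 7.81 and 7.79 in HC, against 8.56, 8.68 and 8.81 in PFC (difference -0.88 ± 0.11, adjusted p = 0.00171), and Kcnj9 had 7.45, 7.51 and 7.54 in HC, against 8.30, 8.33 and 8.16 in PFC (difference -0.76 ± 0.12, adjusted p = 0.0063). Kcnj6 had 9.23, 9.12 and 9.38 in HC, against 8.57, 8.55 and 8.56 in PFC (difference 0.69 ± 0.15, adjusted p = 0.0276), and Kcnj3 did not pass (-0.03 ± 0.30). So among the subunits of the G protein-gated channel, which can combine in several ways, Kcnj6 was higher and Kcnj9 lower in HC. The call of Kcnj6 was lost without any 1 of the 6 brain arrays and with the rat as a fixed block (adjusted p = 0.0625).

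The Kv1 beta subunits and the KChIPs were likewise divided. Kcnab2 (0.62 ± 0.12, adjusted p = 0.0148) and Kcnab1 (0.61 ± 0.13, adjusted p = 0.0268) were higher in HC, and Kcnab3 was lower (-1.04 ± 0.22, adjusted p = 0.0259), with 5.81, 5.61 and 5.65 in HC, against 7.06, 6.78 and 6.35 in PFC. Kcnab1 and Kcnab2 lost their calls without any 1 of the 6 brain arrays, and Kcnab3 without any 1 of them other than the PFC array of rat 7. Kcnip2 had 8.40, 8.42 and 8.55 in HC, against 7.77, 7.45 and 7.29 in PFC (difference 0.95 ± 0.14, adjusted p = 0.00298), and Kcnip3, also known as the transcriptional repressor DREAM, had 7.62, 7.66 and 7.70 in HC, against 8.63, 8.54 and 8.59 in PFC (difference -0.93 ± 0.16, adjusted p = 0.0097). On the probe sets used, these 2 KChIPs differed by about the same amount in opposite directions. The second probe set of Kcnip2 gave 0.14 ± 0.21 and did not pass. For their pore Kcnd2 the difference was 0.53 ± 0.19 (adjusted p = 0.248). All 3 HC arrays of Kcnd2 lay above its PFC arrays, and it passed with HC and PFC fitted alone (adjusted p = 0.00206). Lower calls of smaller size were Kcna2 (-0.61 ± 0.14, adjusted p = 0.0355) and Kcnc2 (-0.47 ± 0.09, adjusted p = 0.0208). With the rat as a fixed block the calls of Kcnc2 (adjusted p = 0.0601), Kcnab3 (adjusted p = 0.0683), Kcnj6 (adjusted p = 0.0625) and, among the modifier subunits, Kcng3 (adjusted p = 0.0806) were lost. With housekeeping scaling those of Kcna2 (adjusted p = 0.216) and Kcnj6 (adjusted p = 0.108) were lost.

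Some marker lists of other cells moved with the regions and others did not. Of all probe sets 2.11% were higher and 2.33% lower in HC than in PFC. Of 6 oligodendrocyte markers 4 were higher in HC than in PFC, with a summed linear signal of 7050 to 8490 in HC, against 3670 to 5500 in PFC. Of 7 astrocyte markers Gfap alone passed, higher by 1.55. Of 9 choroid plexus markers 3 were higher, with Ttr at 11.20, 10.09 and 9.96 in HC, against 4.45, 4.39 and 4.20 in PFC. Of 5 erythroid markers Hbb alone passed, lower in HC (-0.97), and of 7 T cell markers 1 was higher. None of 7 microglia markers and none of 7 endothelial and mural markers passed. Of 8 neuron markers none passed, with a summed signal of 22600 to 23800 in HC, against 25400 to 26200 in PFC. The part of these cells in the Kcn differences was not tested. Kcnj13, a choroid plexus channel, had 5.94, 5.15 and 5.20 in HC, against 5.63, 5.53 and 5.75 in PFC, and did not pass between the regions.

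Proteins that bind these channels followed them in part. Of 17 partner genes listed, 15 were measured, of which 12 were higher in brain than in blood (against 30.0% of all probe sets). The auxiliary BK subunits Lrrc26, Lrrc38 and Lrrc52 were lower (against 49.6%) without being present in any tissue. Lrrc55 of the same family was higher by 1.77 ± 0.18 and present in HC and PFC. The median difference was 2.41. Lgi1, a secreted protein that acts on Kv1 channels at synapses, was higher by at least 5.07, the scaffold Dlg2 by at least 5.48 and its relative Dlg4 by 4.45. Between the regions, the Kv4 partners moved apart. Dpp10 had 6.82, 6.64 and 6.82 in HC, against 9.03, 9.12 and 9.09 in PFC (difference -2.32 ± 0.14, adjusted p = 2.03e-05), and Dpp6 had 9.85, 9.82 and 9.85 in HC, against 9.34 in each PFC array (difference 0.50 ± 0.08, adjusted p = 0.00491). Both are dipeptidyl peptidase-like proteins that speed Kv4 gating. Lgi1 was higher in HC by 0.59 (adjusted p = 0.0426). Of the cation channels of the HCN type, which oppose these currents near rest, Hcn2 (1.37) and Hcn3 (0.44) were higher and Hcn4 (-0.76) lower in brain, and none passed between the regions.

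In the order of protein-coding genes of GRCr8, 9 pairs of Kcn genes lay side by side, of which 3 were both higher in brain and 1 both lower. In 3 pairs 1 gene was higher and the other lower, and in 2 pairs only 1 gene was called. The counts describe these pairs and were not tested. On chromosome 2, Kcna2 (2.40) lay between Kcna3 (-0.36) and Kcna10 (-0.19), and on chromosome 4, Kcna1 (at least 4.06) lay between Kcna5 (0.28) and Kcna6 (2.65). On chromosome 11, Kcnj6 (3.55) had Kcnj15 as its neighbour, and on chromosome 10, Kcnip1 (at least 1.97) had Kcnmb1, both neighbours being below background in all tissues. The pairs called alike were Kcnj16 and Kcnj2, Kcnj9 and Kcnj10, and Kcna1 and Kcna6, all higher, and Kcnj5 and Kcnj1, both lower. Kcnj1 was below background in all tissues, so its call gives no order between them.

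The promoters of the 58 matched genes were searched on both strands, over the 250 bases before the start, for the GC box (GGGCGG), the TATA box (TATAAA) and a GATA site (AGATAA), which can overlap by at most 1 base. The GC box was in 28 Kcn promoters (48.3%), against 32.4% of all 27455 promoters in the table, the TATA box in 2 (3.45%, against 13.1%) and the GATA site in 7 (12.1%, against 2759 of the 27455). The median number of CpG dinucleotides was 11 in the Kcn promoters, against 6 in all promoters. Of the 36 matched genes that were higher in brain than in blood 50.0% held a GC box, and of the 15 that were lower in HC than in PFC 53.3% did, Kcnh5 among them. The shares were 41.7% of the 12 that were lower in brain and 3 of the 5 that were higher in HC. These matches describe the letters in this window only.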

How the data were processed

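Labels gave the tissue and rat of each of the 9 arrays. The authors quantile normalized the intensities, summarized probe sets with RMA (Affymetrix Power Tools 1.51, from 200 ng RNA per array) and deposited values read as log2 (range 1.53 to 14.01). A genome build for this step is not given in the sources used here. Of 29215 probe sets 1 lacked values. The arrays' number limits the precision.

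Tissue was fitted as a factor of 3 levels over 29214 probe sets with limma 3.58.1 in R 4.3.3, without a block, with empirical Bayes moderation and Benjamini-Hochberg adjustment. Adjusted p-values come from this fit unless another fit or scaling is named beside them. An exact permutation test of 3 against 3 arrays cannot go below 0.1, so none is given. Random blocks used statmod 1.5.0, and figures matplotlib 3.10.9. The procedure was tested on simulated data.

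Same-numbered arrays come from the same animal by the labels. Their deviations from the tissue means correlated at -0.05 to 0.23 over 9 pairs, against -0.22 to 0.10 over 18 pairs of different rats. Between HC and PFC alone, the arrays of rats 2, 5 and 7 correlated at 0.21, 0.09 and 0.23, against -0.22 to 0.03 for different rats. The main fit does not use this pairing, and the fixed block does.

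Symbols came from the array annotation and all 83 matched the GRCr8 table. A probe set with 2 symbols and the detection p-values were not used here. Genes were named by rule: the 10 widest called differences each way with 1 direction in all 3 rats and presence in a compared tissue, all genes present in blood or in only 1 brain region, and up to 4 per subfamily. Other Kcn genes named, Kcnh8 and Kcnh4 among them, complete the family and were chosen after their values were seen. Members, lists and rules were chosen with earlier results of these data known. Alternatives covered filters, scaling, the block, moderation, single arrays and rats, the presence level and the choice of probe set.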

Additional observations from a re-analysis of the deposited data

Results flagged for a closer look

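Kcnh8, an ELK channel, stood out because its measured difference from blood was positive in HC and negative in PFC, and the difference between the regions passed the test. It had 5.52, 5.35 and 5.53 in HC, against 4.53, 4.39 and 4.23 in PFC, with 4.76, 4.78 and 4.60 in blood. HC minus PFC was 1.08 ± 0.11 (limma adjusted p = 0.000426), or at least 0.69 counted from the background level. HC minus blood was at least 0.22 (adjusted p = 0.000175). PFC and blood were both below background, so the negative sign of PFC against blood (adjusted p = 0.0212) compares values at that level and gives no order between them. Kcnh8 was present in no tissue.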

How the results depend on the processing

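Leaving out single arrays or rats gave 49 to 53 Kcn genes higher and 15 to 21 lower in brain than in blood, 1 to 8 higher and 5 to 22 lower in HC than in PFC, 12 partner genes higher and 2 to 3 lower in brain, and 54 Kcn genes present in HC, 56 to 57 in PFC and 21 to 24 in blood. In the same fits 27.9% to 30.2% of all probe sets were higher and 42.7% to 48.6% lower in brain. Between the regions 0.664% to 3.56% of all probe sets were higher and 0.753% to 3.72% lower in HC. With rat as a fixed block, which uses the pairing of tissues within animals, 52 were higher and 20 lower in brain (against 29.8% and 49.3% of all probe sets). In that fit 4 were higher and 16 lower in HC (against 1.8% and 2.02%). The calls of Kcnab3, Kcnc2, Kcng3 and Kcnj6 between the regions were lost (adjusted p = 0.0683, 0.0601, 0.0806 and 0.0625) and Kcnmb3 was called lower in brain (0.0411). Kcnmb3 was below background in all tissues, so its call gives no order between them. The block changed no other call among the genes named by the rule, and as a random block it left all these counts in place (52, 19, 5 and 19). Testing only probe sets present in at least 1 tissue kept 60 Kcn genes. Of these 7 were lower in brain (against 37.4% of such probe sets). Testing only those with a mean over 9 arrays above 6.2 kept 53, of which 5 were lower (against 31.2%). That mean is weighted to brain, so this filter drops more of the genes that are high in blood. Over all 83 genes, 31 were lower with housekeeping scaling (against 69.6%) and 5 with a difference of at least 1 (against 16.3%). Partner genes lower in brain numbered 0 under each filter, which left those 3 genes out of the test, and 1 with a difference of at least 1. In HC against PFC, 8 Kcn genes were higher with both regions fitted alone (against 6.11% of all probe sets). With a difference of at least 1, 1 was higher (against 0.743%) and 11 lower (against 0.849%). In blood 8 Kcn genes were present at 7.2, 64 at the background level, 50 at that of a wider receptor set, chosen after seeing the data, and 42 with housekeeping scaling. Housekeeping scaling shifted brain minus blood by -0.61 for every probe set alike. This shift reversed the sign for Kcnab1 (-0.25), Kcne4 (-0.59), Kcng3 (-0.19) and Kcnn1 (-0.25). Of the 12 housekeeping genes 8 were themselves called higher in brain than in blood and 3 lower, and the cause of that was not tested. Low signal limits the rest: 19 Kcn genes were not above background in blood (33 by the wider receptor set), 6 in HC and 7 in PFC.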
